A study of Mus musculus with 10 samples.

Results

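Toll-like receptors of RAW264.7 cells, a mouse macrophage line, were described together with Cd14, the carrier that hands LPS to its receptor. The 10 members are a list of gene symbols: Cd14, Tlr1, Tlr2, Tlr3, Tlr4, Tlr6, Tlr7, Tlr8, Tlr9 and Tlr13. The list leaves out Tlr5, Tlr11 and Tlr12, which had at most 1 count in any library. Each symbol mapped to 1 gene of the 43432 in the counts, and all 10 passed the count filter together with 14172 genes in all. Poly(A) RNA was sequenced from 5 conditions with 2 libraries each. Cells without LPS received 0.5% DMSO (called DMSO). LPS-treated cells received 0.5% DMSO and 1 µg/mL LPS (DMSO + LPS), or the same LPS after **1** at 3.2, 10 or 32 µM. Compound **1**, a fatty acid with an α,β-unsaturated ketone, was given 1 h before LPS, with RNA collected after 12 h. No cells treated with **1** in the absence of LPS were analysed here. The labels number the 2 libraries of each condition as biological replicates without naming separate cultures, so the p-values measure the spread between these libraries, which may be technical.

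Toll-like receptors recognize microbial molecules and signal through adaptor proteins to NF-κB, MAP kinases and interferon regulatory factors. Tlr4, with its partner MD-2 (gene Ly96) and helped by CD14, senses LPS at the cell surface, while Tlr2 pairs with Tlr1 or Tlr6 to sense bacterial lipoproteins. Tlr3, Tlr7, Tlr8, Tlr9 and Tlr13 form the endosomal group, known for binding nucleic acids, and depend on the chaperone UNC93B1 to reach endosomes. Macrophages change the levels of these receptor transcripts after contact with LPS.

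Library totals lay between 45966803 and 58976377 counts. Levels are given in CPM, counts brought to a common library total, with TMM factors that correct for differences in library composition. All 8 macrophage markers were measured, with summed levels of 9729 to 10627 CPM in DMSO, 6928 to 6959 CPM in DMSO + LPS and 5309 to 5728 CPM at 32 µM. Most of the sum was Lyz2 and Csf1r, which with Cd68 and Mertk were lower with LPS than in DMSO, whereas Adgre1, Fcgr1, Spi1 and Itgam were higher. At 32 µM Lyz2 (2828.4 and 2584.8 CPM) and Fcgr1 (18.6 and 15.5 CPM) lay below DMSO + LPS (4093.2 and 4160.3 CPM, and 55.7 and 55.4 CPM), while Csf1r lay above it (1095.1 and 1046.7 against 822.5 and 805 CPM). T-cell markers summed to at most 0.0699 CPM, with Cd3e and Cd8a at 0 in every library, and B-cell markers to at most 0.465 CPM. Neutrophil markers moved with LPS through S100a8, from 0.599 to 1.09 CPM in DMSO to 6.32 to 6.55 CPM in DMSO + LPS and 1.59 to 2.49 CPM at 32 µM. A pair of libraries stood apart from the others. Replicate 1 at 10 µM carried all 4 epithelial markers (1039 counts of Krt8 and 451 of Epcam, 38.2 CPM summed) and 4.43 CPM of fibroblast markers. Replicate 1 at 3.2 µM carried 5.78 CPM and 0.798 CPM of the same lists, whereas the remaining 8 libraries held at most 0.085 and 0.286 CPM. Replicate 1 at 10 µM also held the neutrophil markers Ly6g (39 counts) and S100a9 (16 counts), the latter absent from every other library. Its neutrophil markers summed to 6.86 CPM, beside 2.92 CPM in replicate 2 at 10 µM. The part of these transcripts in the member values was not tested, and the calls at 10 µM and between 32 and 10 µM are given with and without them, while group means and shares include them. Without both, the calls over all genes went from 122 to 45 for 10 µM against DMSO + LPS, from 187 to 122 for 32 against 10 µM and from 36 to 4 for 10 against 3.2 µM. The transcripts Gm26917 and Gm42418, which lie over ribosomal RNA repeats, took 2.58% of the counts of replicate 2 at 32 µM and at most 0.232% elsewhere. In each of the 5 groups the library with the lower level of short transcripts had the higher CPM of all 9 Tlr genes, except for Tlr9 at 3.2 µM. That library was replicate 1 in DMSO + LPS and replicate 2 in the other groups, and the part of transcript length in the member values was not tested apart from the fit named below.

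**Figure D1:**
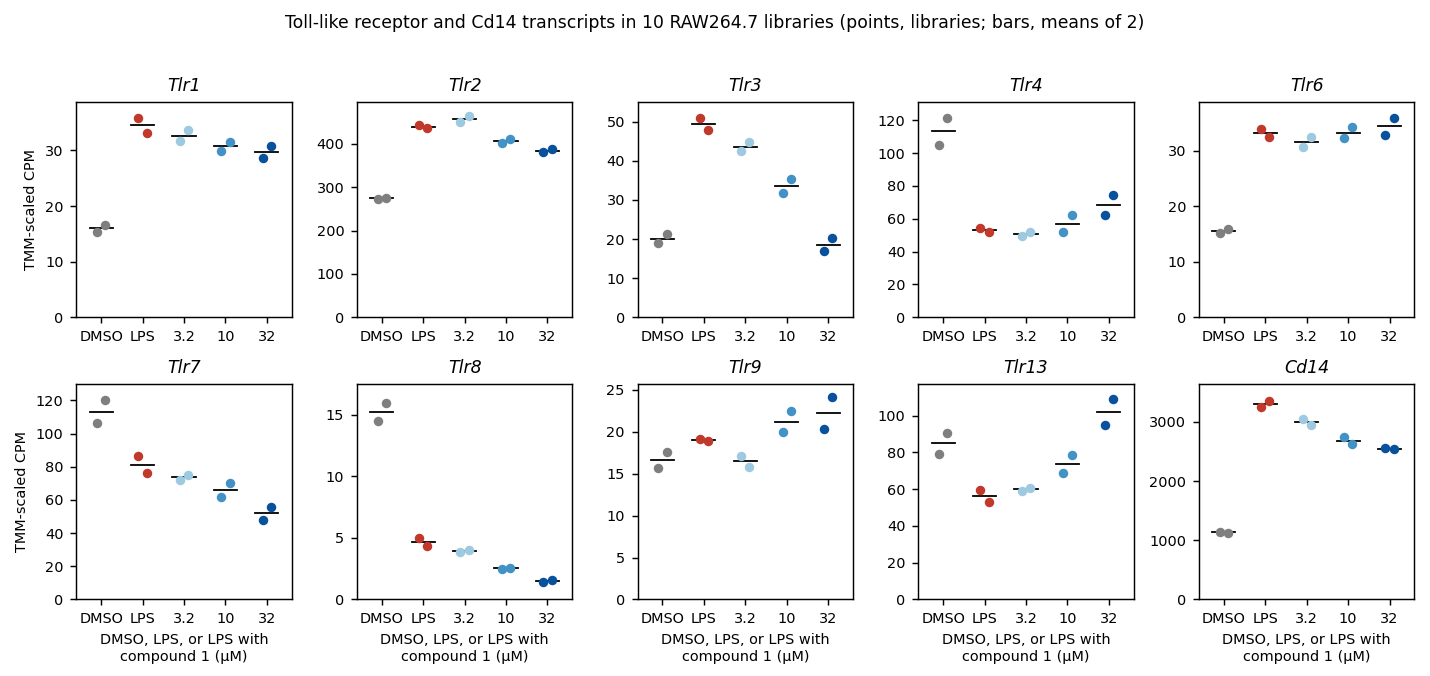
TMM-scaled CPM (y axis, from 0) of each member in each of the 10 libraries, grouped along the x axis as DMSO, DMSO + LPS (LPS), and LPS with 3.2, 10 or 32 µM of **1**. Points are libraries and bars are the means of 2; Cd14 lay between 1129.7 and 3361.6 CPM, while Tlr8 ended at 1.43 and 1.61 CPM at 32 µM.

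The first comparison asked what LPS alone did to the receptors. LPS raised Cd14, Tlr3, Tlr1, Tlr6 and Tlr2 and lowered Tlr8, Tlr4 and Tlr13, so the surface lipoprotein receptors and the LPS carrier went up and the LPS receptor itself went down. A gene was called when its adjusted p in edgeR's quasi-likelihood test, with Benjamini-Hochberg adjustment over all genes tested, was below 0.05 and its change at least 1.5-fold. Of the 10 members, 5 were called higher and 3 lower, where 14.6% of all genes tested were called higher and 13.6% lower. The median log2 fold change of the members was 0.44, beside 0.0026 for all genes. When libraries were scaled by their size alone, the median of all genes moved to -0.20 and the calls over all genes went from 2072 higher and 1923 lower to 1582 and 2938. In bulk RNA, fewer cells with a transcript and less of it per cell cannot be told apart.

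Cd14 (ENSMUSG00000051439, chromosome 18) was the most abundant member. Its level was 1148.5 and 1129.7 CPM in DMSO and 3260.9 and 3361.6 CPM in DMSO + LPS, with no overlap, a log2 fold change of 1.54 ± 0.037 (SE; edgeR adjusted p = 2.41e-08). Tlr4 (ENSMUSG00000039005, chr4:66827584-66930284, plus strand), the signalling receptor for LPS, stood at 105.0 and 121 CPM in DMSO and fell to 54.1 and 52.1 CPM with LPS. The log2 fold change of Tlr4 was -1.09 ± 0.12 (edgeR adjusted p = 1.11e-04). The carrier and the receptor of the same ligand thus moved in opposite directions, and both calls held under every alternative tried.

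Tlr2 (ENSMUSG00000027995, chr3:83836272-83841767, minus strand), which senses lipoproteins as a dimer, rose from 273 and 275 CPM to 444 and 435 CPM. The log2 fold change was 0.68 ± 0.041 (edgeR adjusted p = 3.42e-06), and it fell below 1.5-fold, at 0.47, with scaling by library size alone. Tlr1 (ENSMUSG00000044827, chr5:64924679-64933563, minus strand), the partner for triacylated lipoproteins, rose from 15.4 and 16.6 CPM to 35.9 and 33.1 CPM. Tlr6 (ENSMUSG00000051498, chr5:64952031-64960097, minus strand), the partner for diacylated ones, rose from 15.2 and 16.0 CPM to 33.9 and 32.5 CPM. The 2 partners therefore rose by nearly the same factor, with log2 fold changes of 1.11 ± 0.073 for Tlr1 (edgeR adjusted p = 5.77e-06) and 1.09 ± 0.068 for Tlr6 (edgeR adjusted p = 4.45e-06). These neighbouring genes on chromosome 5 share sequence: 4.3% of the 150-base stretches of Tlr1 transcripts also occur in Tlr6, with a longest shared run of 229 bases, so a small share of their counts is uncertain. No 150-base stretch was shared by any other pair of members.

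The Tlr2 promoter is shown because it held a consensus NF-κB site, the binding sequence of the factor that LPS activates. The bases are from RefSeq on GRCm38.p6, cover chr3:83841768-83841858 (minus strand) and end where the GENCODE M21 gene begins. Capitals mark 2 overlapping matches.
Tlr2: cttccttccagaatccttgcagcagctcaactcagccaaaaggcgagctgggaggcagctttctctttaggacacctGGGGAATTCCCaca
Of the 10 members, 7 had a RefSeq promoter window, in 9 windows, and Tlr4, Tlr7 and Cd14 had none. The NF-κB consensus was found on either strand in 7.25% of 32851 windows of 250 bases upstream of annotated starts, and among the member windows in those of Tlr2 and Tlr3. The windows of Tlr1 and Tlr6, which also rose with LPS, held no such match. A match describes letters only and was not tested for binding or for a part in the LPS response.

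Among the endosomal receptors the direction was mixed. Tlr3 (ENSMUSG00000031639, chr8:45395665-45411080, minus strand), the sensor of double-stranded RNA, had 18.9 and 21.3 CPM in DMSO and 50.8 and 47.8 CPM in DMSO + LPS. This was the largest rise among the Tlr genes, with a log2 fold change of 1.29 ± 0.10 (edgeR adjusted p = 1.82e-05). The transcripts of Tlr3 overlap those of the antisense gene Gm45542 on the opposite strand over 381 bases, 7.32% of its exon bases. The libraries were made strand-specific but the strand setting of the counting is not given in the sources used here, so reads in that stretch cannot be assigned to either strand. The window upstream of the RefSeq start of Tlr3 held 1 NF-κB match, GGGAGTTTCC, 211 bases before the start and inside an exon of the longer GENCODE transcripts.

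Tlr8 (ENSMUSG00000040522, chrX:167242696-167264329, minus strand), also an endosomal receptor, had 853 and 907 counts in DMSO and 287 and 205 in DMSO + LPS. In CPM this was 14.5 and 16.0 against 5.01 and 4.37, a log2 fold change of -1.70 ± 0.11 (edgeR adjusted p = 5.25e-06). Tlr7 (ENSMUSG00000044583, chrX:167304929-167330558, minus strand), its neighbour on the X chromosome and a receptor for single-stranded RNA, stood at 106 and 120 CPM in DMSO and 86.2 and 76.0 CPM in DMSO + LPS. The difference of -0.48 ± 0.10 for Tlr7 passed the adjusted p (0.00532, edgeR) but not the 1.5-fold limit. Tlr13 (ENSMUSG00000033777, chrX:106143204-106160493, plus strand), which recognizes bacterial ribosomal RNA, was at 79.2 and 90.7 CPM in DMSO and 59.7 and 53.3 CPM with LPS. Its log2 fold change of -0.59 ± 0.10 (edgeR adjusted p = 0.00188) lay at the fold limit itself, and 8 of 20 alternatives placed it under that limit, down to -0.47. Tlr9 (ENSMUSG00000045322, chr9:106222598-106226883, plus strand), the sensor of unmethylated CpG DNA, had 15.7 and 17.6 CPM in DMSO and 19.1 and 19.0 CPM in DMSO + LPS. Its difference of 0.19 (95% interval -0.045 to 0.43) was not called (edgeR adjusted p = 0.157) and had the opposite sign with scaling by library size alone (-0.014).

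**Figure D2:**
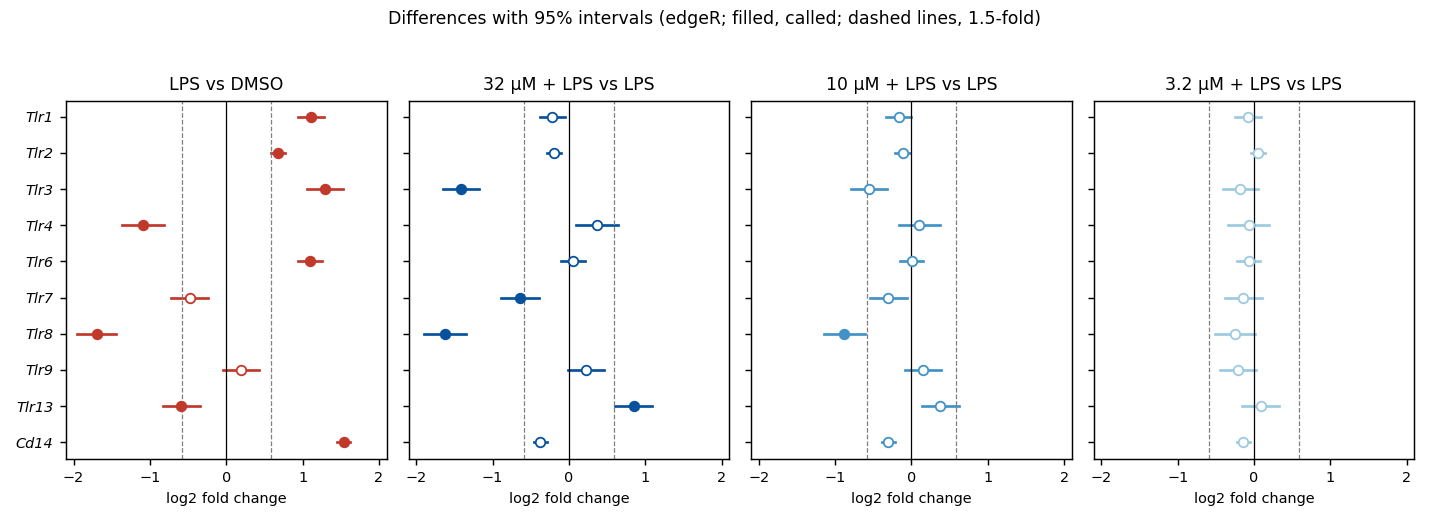
Log2 fold change (x axis) of each member (y axis) in 4 comparisons, with 95% intervals from edgeR as horizontal lines. Filled points were called and open points were not, and dashed lines mark 1.5-fold; 8 points are filled for LPS, 4 at 32 µM, 1 at 10 µM and 0 at 3.2 µM.

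The second comparison asked what **1** at 32 µM changed in LPS-treated cells. Compound **1** lowered Tlr8, Tlr3 and Tlr7 and raised Tlr13, all 4 of them endosomal receptors. None of the surface receptors and neither Cd14 nor Tlr9 was called. Of the 10 members, 1 was called higher and 3 lower, where 1.27% of all genes tested were called higher and 2.91% lower. The median log2 fold change of the members was -0.20, beside 0.0082 for all genes. This comparison uses the same DMSO + LPS libraries as the previous one, so the values of both are given side by side and their relation was not tested.

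The fall of Tlr3 brought it to 16.9 and 20.2 CPM at 32 µM, from 50.8 and 47.8 CPM in DMSO + LPS. The 2 groups did not overlap, and the log2 fold change was -1.41 ± 0.10 (edgeR adjusted p = 9.58e-05), after 1.29 for LPS against DMSO. The level at 32 µM lay beside that of cells without LPS (18.9 and 21.3 CPM), from which it differed by -0.12 with a 95% interval of -0.36 to 0.12 (edgeR adjusted p = 0.389). Both calls of Tlr3 held under every alternative tried.

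For Tlr8, the counts fell from 287 and 205 in DMSO + LPS to 70 and 73 at 32 µM. In CPM these were 5.01 and 4.37 against 1.43 and 1.61, without overlap, a log2 fold change of -1.62 ± 0.12 (edgeR adjusted p = 9.36e-05). Unlike Tlr3, Tlr8 had already fallen with LPS, by 1.70 on the log2 scale. Cells with LPS and 32 µM **1** therefore had 10.0-fold less Tlr8 than cells without LPS, the largest difference of any member in the comparisons made here. The promoter of Tlr8 is shown as that of the member with the largest change. The 250 bases before the start common to RefSeq and GENCODE, chrX:167264330-167264579 on the minus strand of GRCm38.p6, are printed with capitals on the matches.
Tlr8: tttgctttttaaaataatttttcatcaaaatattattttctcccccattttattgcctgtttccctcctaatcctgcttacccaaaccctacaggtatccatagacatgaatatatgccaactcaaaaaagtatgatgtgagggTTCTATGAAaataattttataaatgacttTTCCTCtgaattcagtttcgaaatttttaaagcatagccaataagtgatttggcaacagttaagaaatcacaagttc
The first match is the STAT-type GAS motif TTCNNNGAA, found in 7.02% of all windows, and the second is GAGGAA, the core bound by PU.1, read on the opposite strand and found in 23.3%. The core of the interferon-stimulated response element (2.98% of all windows), the AP-1 motif TGANTCA (6.75%), the antioxidant response core TGACNNNGC (10.2%) and the NF-κB consensus were also searched on both strands and did not occur in these letters.

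Tlr7 stood at 48.1 and 56.0 CPM at 32 µM, below both DMSO + LPS libraries at 86.2 and 76.0 CPM. The log2 fold change was -0.64 ± 0.11 (edgeR adjusted p = 0.0066), after -0.48 for LPS, and against cells without LPS the fall reached -1.12. The call was lost when replicate 1 of DMSO + LPS (log2 fold change -0.55, edgeR adjusted p = 0.0675) or replicate 1 at 32 µM was left out (-0.54, below the fold limit). Tlr7 and Tlr8 had no 150-base stretch in common.

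Tlr13 was the only member called higher. It stood at 94.7 and 109.0 CPM at 32 µM against 59.7 and 53.3 CPM in DMSO + LPS, without overlap, a log2 fold change of 0.85 ± 0.10 (edgeR adjusted p = 0.00153) that held under every alternative. Set against cells without LPS (79.2 and 90.7 CPM), the 32 µM level differed by 0.26 with a 95% interval of 0.022 to 0.50 (edgeR adjusted p = 0.0673). The promoter of Tlr13, the member that rose, is given for chrX:106143025-106143203 (plus strand), which ends before the first GENCODE exon.
Tlr13: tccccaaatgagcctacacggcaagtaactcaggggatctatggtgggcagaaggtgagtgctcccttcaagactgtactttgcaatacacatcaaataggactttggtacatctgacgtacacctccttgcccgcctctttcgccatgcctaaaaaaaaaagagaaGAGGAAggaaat
Capitals mark the PU.1 core, the only match of the 6 motifs in the Tlr13 window. The PU.1 core was also present in windows of Tlr1, Tlr8 and Tlr9, the antioxidant response core in that of Tlr9 alone among the member windows, and the interferon-stimulated core in 1 of the 2 windows of Tlr6.

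The remaining members were within 1.5-fold at 32 µM. Cd14 stood at 2552.1 and 2545.2 CPM, below 3260.9 and 3361.6 CPM in DMSO + LPS, a difference of -0.38 ± 0.037 that passed the adjusted p (4.18e-04, edgeR) but not the fold limit. Tlr2 was at 381 and 388 CPM against 444 and 435 CPM, a difference of -0.19 ± 0.041 (edgeR adjusted p = 0.021). The libraries of Cd14 and of Tlr2 did not overlap between the 2 groups, and neither did those of Tlr1, Tlr4 and Tlr9. Such separation of 2 libraries from 2 gives no p under 0.333 by exact permutation, and its share over all genes was not counted. Tlr4 had 62.5 and 74.6 CPM against 54.1 and 52.1 CPM, a difference of 0.37 with a 95% interval of 0.096 to 0.64 (edgeR adjusted p = 0.103). Tlr1 differed by -0.22 (-0.38 to -0.050, edgeR adjusted p = 0.117) and Tlr9 by 0.22 (-0.015 to 0.46, edgeR adjusted p = 0.256). Tlr6 differed least, by 0.052 (-0.10 to 0.21, edgeR adjusted p = 0.765), and its libraries overlapped.

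**Figure D3:**
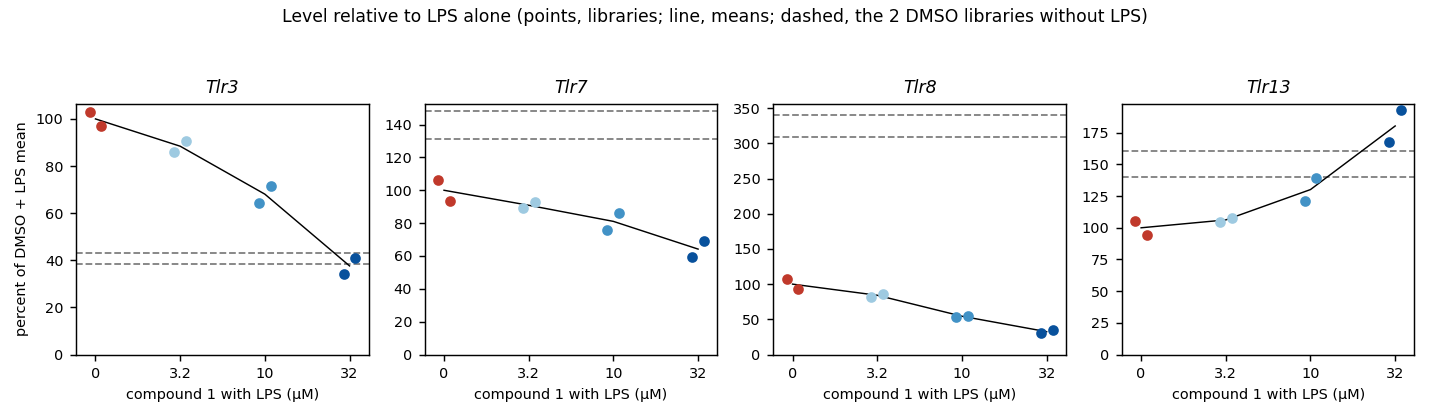
Levels of Tlr3, Tlr7, Tlr8 and Tlr13 (y axis, percent of the DMSO + LPS mean, from 0) against the concentration of **1** with LPS (x axis, µM, equally spaced). Points are libraries, the line joins means of 2 and dashed lines are the 2 DMSO libraries without LPS; the means at 32 µM were 37.6%, 64.2%, 32.5% and 180.3%.

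At 10 µM, **1** lowered Tlr8 alone among the members: 0 of 10 were called higher and 1 lower, where 0.282% of all genes tested were called higher and 0.579% lower. Tlr8 had 117 counts in both libraries, or 2.51 and 2.59 CPM, below both DMSO + LPS libraries. The log2 fold change of Tlr8 was -0.88 ± 0.11 (edgeR adjusted p = 0.00752). Without replicate 1 at 10 µM, the library with epithelial transcripts, it was -0.86 (edgeR adjusted p = 0.044), and without both libraries that carried such transcripts it was -0.86 and no longer called (edgeR adjusted p = 0.133). The call was also lost without replicate 1 of DMSO + LPS (-0.78, edgeR adjusted p = 0.0758). Tlr3 was at 31.8 and 35.4 CPM, a difference of -0.56 ± 0.10 that passed the adjusted p (0.0311, edgeR) but not the fold limit, and that came to -0.48 without replicate 1 at 10 µM (edgeR adjusted p = 0.138). It was called without replicate 2 at 10 µM (-0.66, edgeR adjusted p = 0.0342). Cd14 differed by -0.30 ± 0.037 (edgeR adjusted p = 0.00555), also under the fold limit. The values of Tlr7 and Tlr13 were -0.30 (edgeR adjusted p = 0.269) and 0.38 (edgeR adjusted p = 0.145). Without both libraries that carried epithelial transcripts the differences were -0.33 for Cd14 (edgeR adjusted p = 0.0918), -0.21 for Tlr7 and 0.47 for Tlr13.

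At 3.2 µM, none of the 10 members was called and 0% of all genes tested were called in either direction in edgeR. The adjusted p of the members lay between 0.826 and 0.999. No other fit called a member, but over all genes the fit on the 4 libraries alone called 66 (48 higher and 18 lower) and the remaining alternatives called 0 to 5. DESeq2's Wald test called 0 members, and 1 member, Cd14, had an unadjusted p below 0.05 in edgeR, where 4.23% of all genes had. Cd14 stood at 3043.4 and 2949.5 CPM against 3260.9 and 3361.6 CPM, a difference of -0.14 ± 0.037. The intervals of the members that were called at 32 µM did not reach 1.5-fold at 3.2 µM: Tlr8 differed by -0.25 (-0.51 to 0.0074), Tlr3 by -0.18 (-0.41 to 0.055), Tlr7 by -0.14 (-0.38 to 0.10) and Tlr13 by 0.087 (-0.16 to 0.33).

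Between neighbouring concentrations, 32 µM against 10 µM gave 0 members higher and 2 lower, where 0.169% and 1.15% of all genes tested were called. Tlr3 was lower by 0.86 on the log2 scale (edgeR adjusted p = 0.00427), a value that was -0.93 without both libraries with epithelial transcripts. This call was lost on the 4 libraries compared alone (edgeR adjusted p = 0.141). The Tlr8 difference was -0.75 ± 0.12 (edgeR adjusted p = 0.0172) and was lost when any 1 of the 4 libraries was left out, and without both libraries with epithelial transcripts (-0.77, edgeR adjusted p = 0.164). Tlr13 differed by 0.47 ± 0.10 (edgeR adjusted p = 0.0674), and by 0.38 without both libraries. For 10 µM against 3.2 µM, 0 members were called in edgeR, where 0.0706% of all genes tested were called higher and 0.183% lower, and 6 members had an unadjusted p below 0.05, where 8.38% of all genes had. The value nearest to a call was that of Tlr8 (-0.63 ± 0.11, edgeR adjusted p = 0.0606), which was called by DESeq2's Wald test.

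The order of the mean levels therefore differed between the members. For Tlr8 it ran from DMSO (15.2 ± 1.04 CPM, SD, n = 2) through DMSO + LPS (4.69 ± 0.457), 3.2 µM (3.95 ± 0.121) and 10 µM (2.55 ± 0.0524) to 32 µM (1.52 ± 0.130). In that order DMSO + LPS and 3.2 µM, and 3.2 µM and 10 µM, were not called different. Tlr7 followed the same order at 113 ± 9.91, 81.1 ± 7.17, 73.7 ± 2.13, 65.7 ± 5.88 and 52.1 ± 5.53 CPM, with no neighbouring pair called different. For Tlr3 the order ran from DMSO + LPS (49.3 ± 2.12 CPM) through 3.2 µM (43.6 ± 1.64), 10 µM (33.6 ± 2.54) and DMSO (20.1 ± 1.70) to 32 µM (18.5 ± 2.33), and the pair of 10 µM and DMSO was the only neighbouring pair called, a call that was lost with scaling by library size alone (0.54). Tlr13 was highest at 32 µM (101.8 ± 10.1 CPM), then in DMSO (84.9 ± 8.11), at 10 µM (73.5 ± 7.04), at 3.2 µM (60.0 ± 1.11) and in DMSO + LPS (56.5 ± 4.51), with no neighbouring pair called. For Tlr1, Tlr2, Tlr6 and Cd14 all LPS-treated groups stood above DMSO, and for Tlr4 all stood below it.

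Against cells without LPS, those with LPS and 32 µM **1** had 3 members called higher (Cd14, Tlr6 and Tlr1) and 3 lower (Tlr8, Tlr7 and Tlr4), where 13.9% and 13.3% of all genes tested were called. With scaling by library size alone the median of all genes moved to -0.18, and the calls over all genes went from 1964 higher and 1883 lower to 1490 and 2798. Cd14 was 1.16 ± 0.037 above cells without LPS on the log2 scale (edgeR adjusted p = 1.36e-07) and Tlr4 0.72 below (-0.72 ± 0.12, edgeR adjusted p = 0.00115). Tlr6 was higher by 1.14 and Tlr1 by 0.90. Tlr2, at a difference of 0.49 ± 0.041, passed the adjusted p (2.69e-05, edgeR) but not the fold limit, and Tlr9 did the same at 0.42 ± 0.10 (edgeR adjusted p = 0.0102).

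Levels of different genes can be compared only per length, in CPM per kilobase of exon. On that scale Cd14 stood at 658 ± 7.71 in DMSO and 1911.8 ± 41.1 in DMSO + LPS (SD, n = 2), above the sum of the 9 Tlr genes in both (181 and 224). Tlr2 was the most abundant Tlr gene throughout, with 50.4% of that sum in DMSO, 65.2% in DMSO + LPS and 62.3% at 32 µM. Tlr7 followed in DMSO with 15.4%, then Tlr4 with 11.3% and Tlr13 with 10.9%. At 32 µM Tlr13 was second with 11.6%, beside 6.23% for Tlr7, 6.03% for Tlr4, 1.74% for Tlr3 and 0.207% for Tlr8. The summed level was 224 in DMSO + LPS and 205 at 32 µM. The length counted all annotated exon bases of a gene. Tlr4 has 5556 of them and a longest transcript of 4077 bases, and Tlr7 has 4082 and 3897. The order of genes with near shares may therefore depend on the length used.

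**Figure D4:**
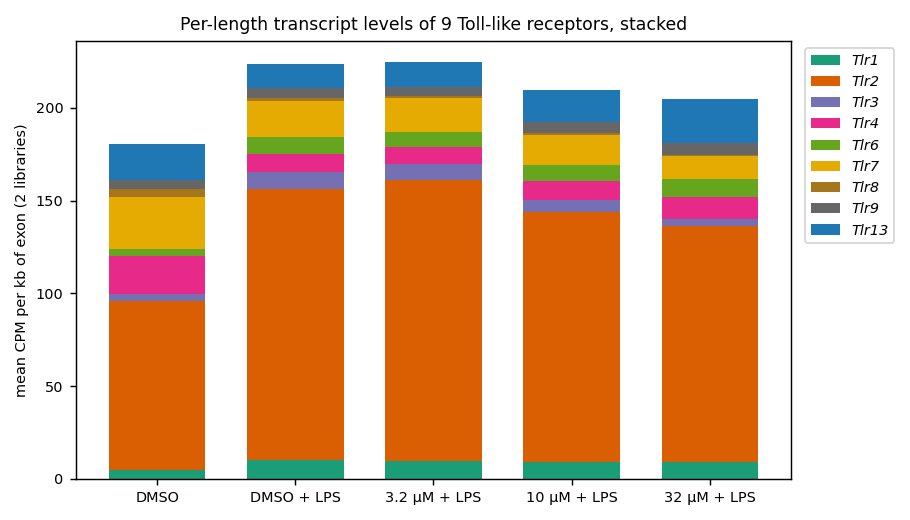
Mean level of the 9 Tlr genes in CPM per kilobase of exon (y axis, from 0), stacked, in the 5 conditions (x axis), 2 libraries each. The sums are 181 in DMSO, 224 in DMSO + LPS, 225 at 3.2 µM, 209 at 10 µM and 205 at 32 µM, and Tlr2 is the largest band in each.

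Of the other genes of the pathway, a list of 54 was drawn from general knowledge and 50 passed the count filter. Tlr5, which binds flagellin, had 1 count in each of 2 libraries, and Tlr11 and Tlr12 had 0 in all. Lbp, the serum protein that binds LPS, had 4 counts, all in replicate 1 at 10 µM. LPS raised 13 of the 50 and lowered 5, **1** at 32 µM raised 0 and lowered 3, and at 10 and 3.2 µM 0 were called in edgeR, to be read against the shares of all genes given above. With an unadjusted p below 0.05 in edgeR there were 8 higher and 17 lower among the 50 at 32 µM, where 10.8% and 11.4% of all genes tested had such a p. At 10 µM there were 0 higher and 9 lower (5.81% and 6.24% of all genes), and at 3.2 µM 0 higher and 1 lower (1.77% and 2.46%). The medians of the 50 were 0.11 for LPS and -0.054 at 32 µM.

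Beside 14.6% of all genes tested, LPS raised 4 of 7 LPS recognition and surface partners. They were Itgb2 (log2 fold change 1.30) and Itgam (0.98), the chains of the integrin Mac-1, of which Itgam is also 1 of the 8 macrophage markers, Msr1 (0.82), a scavenger receptor, and Ly96 (0.80), the LPS-binding partner of Tlr4. At 32 µM 1 of the 7 was lower, beside 2.91% of all genes tested. It was Itgam, which went from 458 and 425 CPM to 277 and 277 CPM (-0.67 ± 0.066, edgeR adjusted p = 4.69e-04). Its partner chain Itgb2 was at 648 and 633 CPM beside 599 and 590 CPM (0.11 ± 0.040, edgeR adjusted p = 0.162). Ly96 had 19.6 and 15.7 CPM at 32 µM and 17.6 and 17.1 CPM in DMSO + LPS, and the difference of 0.027 was not called (edgeR adjusted p = 0.952).

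Among 17 genes of trafficking and endosomal processing, LPS raised 3 and lowered 2, shares near those of all genes. Slc15a3, an endosomal transporter of histidine and peptides, rose by 3.63 on the log2 scale and Hsp90b1, the endoplasmic chaperone of Toll-like receptors, by 0.72. Lgmn, the protease legumain that cleaves endosomal receptors, fell by 2.22 and Pld4, an exonuclease that degrades nucleic acids in endosomes, fell by 0.95. At 32 µM 1 of the 17 was lower, beside 2.91% of all genes tested. It was Slc15a3, which went from 673 and 696 CPM to 414 and 396 CPM (-0.76 ± 0.072, edgeR adjusted p = 3.87e-04). Unc93b1, which carries the endosomal receptors from the endoplasmic reticulum, stood at 257 and 243 CPM against 293 and 305 CPM, a difference of -0.26 ± 0.055 under the fold limit (edgeR adjusted p = 0.0227).

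Beside 14.6% of all genes tested called higher and 13.6% lower, LPS raised 6 and lowered 2 of 21 adaptors and proximal kinases. The 4 largest changes were those of Ikbke (3.77), an IKK-related kinase of the interferon branch, Irak2 (2.25), a kinase of the Myd88 complex, Ticam1 (1.53), the adaptor TRIF of Tlr3 and Tlr4, and Irak3 (1.30), an inhibitory member of the IRAK family. At 32 µM 1 of the 21 was lower, beside 2.91% of all genes tested. It was Ikbke, which went from 69.3 and 63.8 CPM to 42.2 and 40.3 CPM (-0.69 ± 0.11, edgeR adjusted p = 0.00489). Myd88, the adaptor of all members but Tlr3 and Cd14, rose by 0.75 with LPS and was at 139.9 and 137 CPM at 32 µM against 177 and 176 CPM, a difference of -0.35 ± 0.077 under the fold limit (edgeR adjusted p = 0.026). Of 5 receptor-level inhibitors, LPS lowered 1, beside 13.6% of all genes tested, and **1** at 32 µM changed 0. The lowered gene was Il1rl1 (-1.49), the decoy-forming receptor ST2.

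The genes whose pattern over the 10 libraries was most like that of a member were sought among 9533 genes of at least 5 CPM on average. The measure was Pearson's r of log2 CPM, given without a p because the points are 5 conditions with 2 libraries each. For Tlr3 they were Gm5431 (r = 0.992), Samhd1 (0.987), which hydrolyses deoxynucleotides, and Gm6548 (0.987). The level of Samhd1 was 180 CPM in DMSO, 339 in DMSO + LPS and 184 at 32 µM, close to the course of Tlr3. For Tlr8 they were Dab2 (0.998), an endocytic adaptor, Lmo2 (0.994) and Gda (0.991), all highest in DMSO and lowest at 32 µM. Tlr7 was most like Slfn9 (0.990), Isoc1 (0.988) and Itpr1 (0.987), and Tlr13 most like Pla2g4a (0.987), a phospholipase, D5Ertd579e (0.982) and Mapk9 (0.981). Tlr7 and Tlr8 had r = 0.979 with each other, and Tlr3 and Tlr13 had r = -0.895.

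The members that were called with LPS and not at 32 µM had likeness values of at least 0.9935. Cd14 was most like Stk40, Mettl6 and Srgn, the core protein of granule proteoglycans. Tlr1 was most like Syk, a kinase of immune receptors, Sec23ip and Dusp16, a phosphatase of MAP kinases. Tlr2 was most like Eps8, Arhgef3 and the proteasome subunit Psma6. Tlr6 was most like Hyou1, a chaperone of the endoplasmic reticulum, Mmadhc and the cystine transporter Slc7a11. Tlr4 was most like B230219D22Rik, Fam185a and Trim59, each lower in every LPS-treated group than in DMSO.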

How the data were processed

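The authors made strand-specific poly(A) libraries from RAW264.7 cells and deposited a table of raw counts, with Ensembl gene identifiers in rows and the 10 libraries in columns, that was not normalized. The submitters' processing notes name Trimmomatic, FastQC, STAR and DESeq2 and the build mm10, without versions, and the use of strand in counting is not given in the sources used here. Symbols and positions came from GENCODE M21 (GRCm38), and promoter windows from RefSeq (GRCm38.p6). In R 4.3.3 with edgeR 4.0.16, genes kept by filterByExpr (minimum count of 10) were scaled by TMM and fitted with 1 mean per condition over all 10 libraries (5 residual degrees of freedom, common biological coefficient of variation 0.128), and contrasts were tested with the quasi-likelihood F test. DESeq2 1.42.0 was an alternative. At 5 CPM the counting error of a library was at most 6.60%. Exact permutation of 2 libraries against 2 gives no p under 0.333 and was not used. The code was tested on simulated data.

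The genes named are the members, from each pathway list at most the 4 called genes with the largest change for LPS and for 32 µM, and the 3 genes most like each called member. Unc93b1, Myd88, Tlr5, Tlr11, Tlr12 and Lbp were named beside them for their role, after their values were seen. The members and lists were chosen with earlier results of these data known. Alternatives were other scalings, filters and tests, the replicate number, a short-transcript score (the median level of 488 genes with transcripts under 1000 bases), and each library left out. Leaving out both libraries with epithelial transcripts was added after seeing the data, as were 3 further contrasts used to order the levels.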

Additional observations from a re-analysis of the deposited data

How the results depend on the processing

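Over the 10 members and 7 comparisons, leaving aside the fit without both libraries with epithelial transcripts, 1306 of the alternative values stayed on the same side of the call as reported, 19 lost a call, 5 gained one and 0 changed direction with a call. In the 3 further contrasts used to order the levels, with that fit included, 591 of 600 values stayed, 4 lost a call (Tlr3 for 10 µM and Tlr2 and Tlr7 for 3.2 µM, each against DMSO) and 5 gained one. The count of called members moved by more than 1.5 times in 3 of the 7 comparisons. For 10 µM against DMSO + LPS, 1 member was called as reported, 3 without the fold limit (where 2.67% of all genes tested passed), 0 on the 4 libraries compared alone, 0 to 2 when 1 library was left out (0 without replicate 1 of DMSO + LPS and 2 without replicate 2 at 10 µM), and 0 without both libraries with epithelial transcripts. The calls over all genes moved too, from 122 to 41 on the 4 libraries alone, 52 without replicate 1 of DMSO + LPS, 227 without replicate 2 at 10 µM and 45 without both libraries. For 32 µM against 10 µM, 2 were called as reported, 0 on the 4 libraries alone, 1 to 2 when 1 library was left out and 1 without both libraries with epithelial transcripts. Over all genes these calls went from 187 to 5 on the 4 libraries alone, 139 to 257 when 1 library was left out and 122 without both libraries. For 10 µM against 3.2 µM, 0 were called as reported and 1 (Tlr8) with a mean of at least 5 CPM, with DESeq2's Wald test or with the short-transcript score in the fit, where the calls over all genes were 36 as reported and 33, 54 and 101. The cause of these moves was not tested.

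No source used here says that a replicate number marks a shared culture or day. The replicate 1 minus replicate 2 differences correlated over genes between 0.104 and 0.573 for the 6 pairs of conditions without DMSO + LPS, and between -0.169 and -0.0664 for the 4 pairs with it, so the numbers were not taken to pair the libraries. With the replicate block in the fit, Tlr13 was -0.58 for LPS against DMSO and fell just under 1.5-fold (edgeR adjusted p = 9.61e-04), and no other member call changed. With the short-transcript score Tlr13 was -0.47 for LPS. Scaling by library size alone lost the LPS call of Tlr2 (0.47) and added 1 for Tlr7 (-0.69). Leaving out both libraries with epithelial transcripts kept 68 of 70 member values on the same side of the call and lost the calls of Tlr8 at 10 µM and for 32 against 10 µM. A condition left with 1 library is assumed to vary like the others. Depth limits Tlr8 most, with 70 to 117 counts at 10 and 32 µM.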
